A study of Homo sapiens with 8 samples.

Results

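The genes described here encode the machinery that separates chromosomes in mitosis: the spindle, the kinetochores that tie chromosomes to it, and the checkpoint, kinases and destruction factors that time the division. They are 55 named genes, taken as the rows of the deposited table that carry their symbols. All 55 were found among its 58825 genes, and all 55 passed the filter on low values, among 16542 genes tested. RNA was measured in BJ cells, a human skin fibroblast line, in a derivative labelled BJ-HRAS. Its 8 libraries came from 2 wild-type (WT) clones, numbered 15 and 54, and 2 SNORA13 knockout (KO) clones, numbered 66 and 69. Each clone was sampled without (Z)-4-hydroxytamoxifen (4-OHT) and after 7 days with it at 100 nM, which gives 4 groups of 2 libraries. SNORA13 is a small nucleolar RNA, and the series concerns the part of such an RNA in making ribosomes and in senescence, a lasting arrest of division.

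All groups carry the HRAS label, the controls included, so no group is the parental line. In fibroblasts of this kind 4-OHT, a ligand of the oestrogen receptor, is commonly used to turn on a fusion of that receptor with HRAS. The construct and its promoter are not stated in the labels, and no group held WT or KO cells lacking it. A clone grows from a single cell, so a difference between the genotypes also holds whatever else sets these clones apart, and p-values measure the spread between clones. The 2 libraries of a clone share that clone. The minus sign after a clone number in the table was read as 4-OHT negative, a reading of the column names on which every direction below rests.

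Cells switch the genes of mitosis on late in the cell cycle and hold them off in quiescence and senescence. In resting cells the DREAM complex, built around RB-like proteins, represses them, and in dividing cells MYBL2 and FOXM1 activate them on the same promoters. Their summed RNA is therefore widely used as a measure of how much a culture is dividing, with MKI67 as the best known marker. In bulk RNA such as this, fewer dividing cells and less RNA per dividing cell cannot be told apart.

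The WT libraries held 4 to 7 reads of SNORA13 and the KO libraries 0 reads, which allows up to 3 reads, or 0.930 to 0.982 RPKM (read counts divided by transcript length and by the total of the library), in each. RPKM here are the deposited values divided by trimmed-mean (TMM) factors, which even out differences in composition between libraries. Library totals were 22.1 to 24.9 M reads. The signal recognition particle RNA (RN7SL genes) took 9.18% to 10.13% of the reads without 4-OHT and 9.72% in WT clone 15 with it, against 14.77% to 16.1% in the other 3 treated libraries. All 12 fibroblast markers passed the filter on low values. They summed to 4957 to 5642 RPKM in the 4 untreated libraries and 3347 to 3701 RPKM in the 4 treated ones. The sum holds opposite moves: COL1A2 (1222 to 1763 RPKM without and 242 to 334 with 4-OHT), LUM (286 to 855 and 12.2 to 23.5) and DCN (54.5 to 79.8 and 0.885 to 1.10) were lower with 4-OHT, while VIM (781 to 813 and 1039 to 1281) and S100A4 (851 to 1082 and 1295 to 1645) were higher. Of the 6 epithelial markers 3 passed, mainly KRT18 (255 to 780 RPKM), and KRT5 and KRT14 were at 0. Their sum was 780 to 800 RPKM in untreated WT, 492 to 549 in untreated KO, 281 to 290 in treated WT and 263 to 273 in treated KO. Endothelial markers summed to 0.178 to 0.411 RPKM and melanocyte markers to 0.231 to 1.11 RPKM. Immune markers summed to 8.75 to 16.6 RPKM, of which CD14 made 7.30 to 13.7, with CD68 at 0. The part of these marker levels and of the RN7SL share in the results below was not tested.

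The promoters of mitotic genes are known for a short element called the cell cycle genes homology region, TTTGAA or TTCGAA, and for CCAAT boxes upstream of it, the letters that the factor NF-Y reads. Both were searched on both strands in promoter sequence from RefSeq (GRCh38.p14), which held 45 of the 55 genes. The table used here has no entry for UBE2C, BIRC5, AURKA, PBK, TPX2, RACGAP1, BUB3, TTK, CENPM and CDCA2. Of the 45, 35 (77.8%) had TTTGAA or TTCGAA between 250 bases before and 50 bases after the start, against 16.6% of the 27305 promoters in the table and 11.4% of the 10487 that belong to tested genes. In the 250 bases before the start alone, it was 23 of 45 (51.1%) against 14.6% of all promoters. CCAAT stood in 34 of 45 (75.6%) before the start, against 33.0% of all promoters, and 20 of 45 (44.4%) held 2 or more, against 10.0%. Both kinds of letters together stood in 27 of 45 (60%) of the longer windows, against 6.6%. A match is a description of the letters, not evidence of a bound site. The 4 genes below, 1 each from the passenger complex, the checkpoint, the kinesins and the anaphase genes, show the arrangement in the 250 bases before the start, written 5′ to 3′ on the gene's strand. Capitals mark TTTGAA or TTCGAA and CCAAT on either strand (TTCAAA and ATTGG are their reverse complements).
INCENP: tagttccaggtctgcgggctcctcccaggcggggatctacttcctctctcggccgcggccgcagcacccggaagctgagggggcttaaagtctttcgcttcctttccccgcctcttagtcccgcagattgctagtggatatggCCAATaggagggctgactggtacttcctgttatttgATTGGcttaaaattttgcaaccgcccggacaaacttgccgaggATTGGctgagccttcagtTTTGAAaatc
BUB1B: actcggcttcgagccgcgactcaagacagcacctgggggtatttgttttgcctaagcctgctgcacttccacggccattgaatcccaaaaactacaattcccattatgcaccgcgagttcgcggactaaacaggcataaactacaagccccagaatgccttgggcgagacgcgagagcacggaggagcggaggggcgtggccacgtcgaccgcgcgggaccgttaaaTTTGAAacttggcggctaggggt
KIF11: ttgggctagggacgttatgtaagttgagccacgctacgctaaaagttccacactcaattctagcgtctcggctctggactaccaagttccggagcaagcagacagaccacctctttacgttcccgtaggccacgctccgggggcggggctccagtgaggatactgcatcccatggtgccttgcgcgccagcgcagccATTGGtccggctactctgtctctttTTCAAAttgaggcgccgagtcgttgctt
CKS2: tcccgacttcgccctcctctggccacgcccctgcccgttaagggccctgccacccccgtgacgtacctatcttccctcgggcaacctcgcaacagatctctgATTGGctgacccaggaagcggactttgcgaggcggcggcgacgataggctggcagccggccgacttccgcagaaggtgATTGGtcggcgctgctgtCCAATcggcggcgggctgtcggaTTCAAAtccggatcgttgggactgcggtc
INCENP (GRCh38, chr11:62123761-62124010, plus strand) and CKS2 (chr9:89310945-89311194, plus strand) each held 1 homology region and 3 CCAAT. KIF11 (chr10:92592880-92593129, plus strand) held 1 of each, and BUB1B (chr15:40160819-40161068, plus strand) held the homology region with no CCAAT in this window. In these 4 promoters the element began 10 to 29 bases before the start. ASPM and KIF20A are shown as well, chosen after their values were seen. They were picked as the 2 genes called lower with 4-OHT in WT clones (main limma fit, adjusted p under 0.05).
ASPM: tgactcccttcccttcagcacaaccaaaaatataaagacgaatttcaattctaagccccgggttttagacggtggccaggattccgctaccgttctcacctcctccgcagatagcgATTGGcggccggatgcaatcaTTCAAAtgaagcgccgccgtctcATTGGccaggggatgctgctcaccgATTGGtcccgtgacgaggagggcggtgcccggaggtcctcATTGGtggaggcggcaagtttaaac
KIF20A: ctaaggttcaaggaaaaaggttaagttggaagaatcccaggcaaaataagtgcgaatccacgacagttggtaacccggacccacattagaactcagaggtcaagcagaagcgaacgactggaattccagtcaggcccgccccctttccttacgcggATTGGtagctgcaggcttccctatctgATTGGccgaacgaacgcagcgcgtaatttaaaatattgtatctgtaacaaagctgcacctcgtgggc
ASPM (chr1:197146670-197146919, minus strand) held TTCAAA 113 bases before the start and 4 CCAAT. KIF20A (chr5:138178862-138179111, plus strand) held 2 CCAAT and no homology region in these 250 bases. The starts used here are those of RefSeq and can differ from the GENCODE gene positions given below. By GENCODE the KIF20A gene begins at 138178719, so its window lies inside the gene. The bases before that GENCODE start were not searched.

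Over the 4 groups most of the genes followed 1 order. Untreated KO clones had the lowest RNA of nearly all of them and treated KO clones the highest, with both WT groups between. The median over the 55 genes was 2.57 and 2.61 RPKM in untreated KO clones 66 and 69, 5.64 and 8.48 in untreated WT clones 15 and 54, 6.31 and 8.15 in treated WT clones 15 and 54, and 13.9 and 13.7 in treated KO clones 66 and 69. For 53 of the 55 genes both untreated KO libraries lay below the 6 others and both treated KO libraries above them, a pattern that 4.98% of all tested genes had. The exceptions were ASPM, which was lowest in treated WT, and KIF20A, whose untreated WT clone 54 (22.8 RPKM) lay just above treated KO clone 69 (22.5). By group means, 45 genes had the order untreated KO, untreated WT, treated WT, treated KO. Another 9 had the WT groups exchanged, and ASPM had treated WT lowest.

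**Figure D1:**
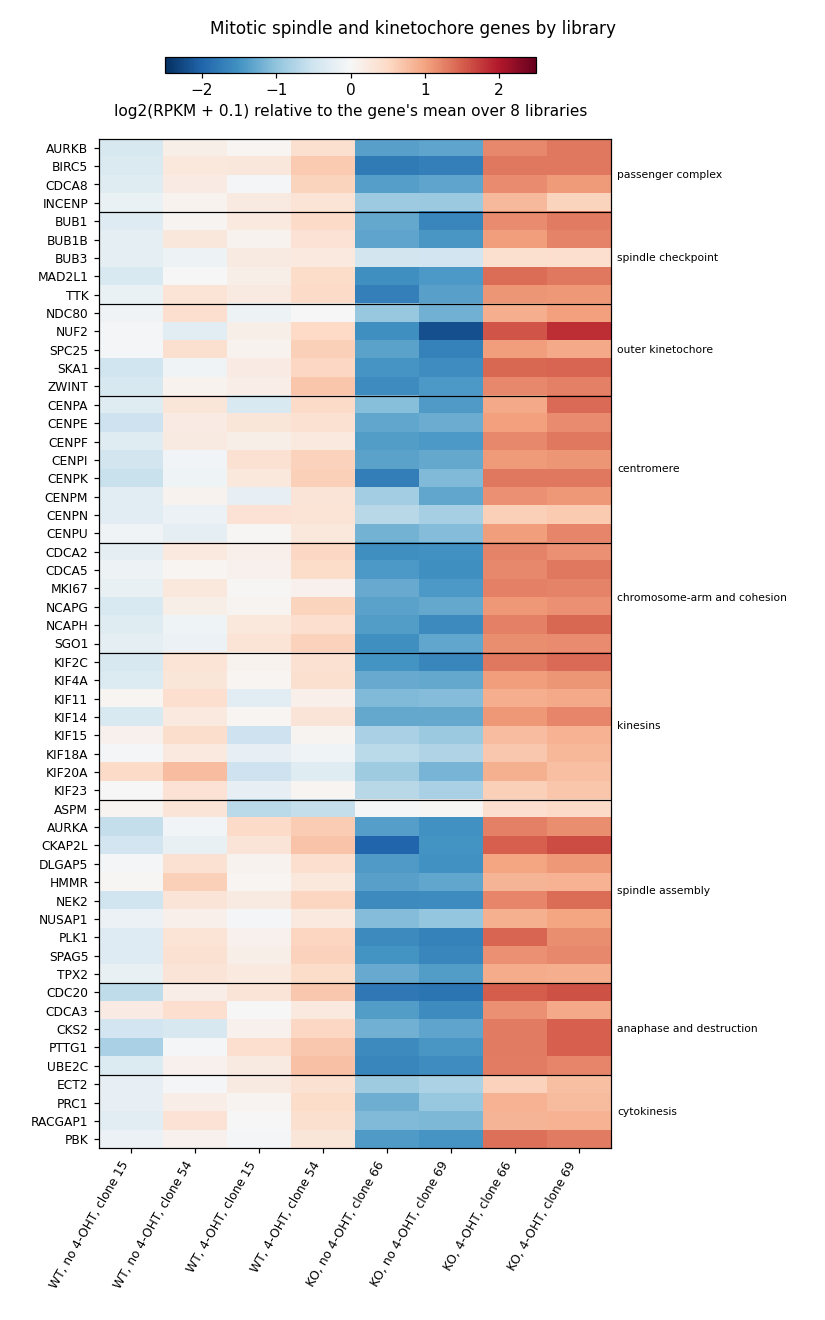
Each row is 1 of the 55 genes, grouped by role, and each column 1 of the 8 libraries. Colour gives log2(RPKM + 0.1) relative to the gene's mean over the 8 libraries, blue below and red above. Both untreated KO columns are blue and both treated KO columns red in nearly every row, with the 4 WT columns near the mean. ASPM and KIF20A have their own pattern, with the treated WT columns blue.

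In the KO clones all 55 genes rose with 4-OHT (limma, Benjamini-Hochberg adjusted p from 7.72e-06 to 0.00667), where 27.9% of all tested genes were called higher and 27.8% lower. Their median rise was 5.75-fold (log2 2.52), against a median of -0.02 on the log2 scale over all tested genes. Folds were computed from log2(RPKM + 0.1), so those of low genes are understated, and ± after a log2 value is its standard error. NUF2, a subunit of the microtubule-binding NDC80 complex, rose most (12-fold), followed by CDC20, the activator of the anaphase-promoting complex (10.3-fold), and CKAP2L, a spindle protein (9.87-fold). ASPM (1.38-fold), BUB3 (1.84-fold) and CENPN (2.61-fold) rose least. Each of the 55 calls held in all 16 alternative fits, the 8 that leave out a library among them. In both KO clones every gene was higher with 4-OHT than without, and no member overlapped between the 2 groups, which 39.6% of all tested genes also showed.

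In the WT clones the responses were smaller. Of the 55 genes, 16 rose and 2 fell with 4-OHT (limma, adjusted p under 0.05), against 24.7% and 24.2% of all tested genes. The median was 1.24-fold (log2 0.31), with 46 genes positive and 9 negative. PTTG1, which encodes securin, rose most (1.96-fold), then the spindle kinase AURKA (1.86-fold) and CKAP2L (1.81-fold). KIF20A, a kinesin of the central spindle, fell 2.05-fold and ASPM, a spindle pole protein, fell 1.79-fold. With the clone as a replicate block, 25 genes were called higher and 4 lower, against 25.1% and 24.7% of all tested genes. The genes gained were AURKB, BIRC5, CDCA8, INCENP, BUB1, CDCA2, CDCA5, NCAPG and NEK2 (higher) and KIF11 and KIF15 (lower), with limma adjusted p of 0.00495 to 0.0493. The WT response hangs on single libraries. Its median log2 was 0.06 without untreated WT clone 15 and 0.54 without untreated WT clone 54. It was 0.16 without treated WT clone 54 and 0.48 without treated WT clone 15. The calls that held in all 16 alternatives were BUB3, CENPI, CENPN, AURKA and CKS2 (higher) and KIF20A and ASPM (lower). Libraries did not overlap for 23 genes above and 4 below (ASPM, KIF15, KIF18A and KIF20A), against 36.1% and 36.7% of all tested genes.

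The response to 4-OHT differed between the genotypes for all 55 genes, each with the larger value in KO (limma interaction term, adjusted p 0.00321 to 0.0391), where 4.36% of all tested genes were called higher and 3.22% lower. The median difference was 4.72-fold (log2 2.24), against -0.02 on the log2 scale over all tested genes. NUF2 (8.49-fold), KIF20A (7.41-fold) and CDCA3, a trigger of mitotic entry (6.52-fold), differed most. BUB3 (1.39-fold), CENPN (1.77-fold) and the cytokinesis factor ECT2 (2.12-fold) differed least. Leaving out 1 library gave a median log2 difference of 2.02 to 2.46, and 42 genes held their calls in all 15 alternatives. BUB3, CENPA and PRC1 were the least secure, with 9, 7 and 8 of 15 alternatives that ended the call.

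**Figure D2:**
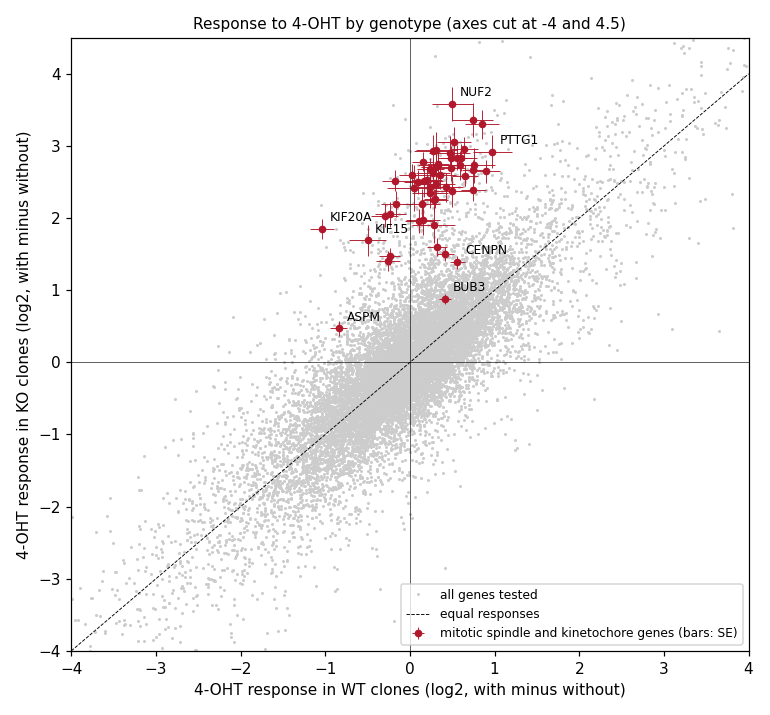
The horizontal axis gives the 4-OHT response in WT clones and the vertical axis that in KO clones, both as log2 of treated over untreated. Grey points are all tested genes, red points the 55 genes with standard errors as bars, and the dashed line marks equal responses. All 55 lie above the dashed line, with a median of 0.31 on the WT axis and 2.52 on the KO axis, and KIF20A and ASPM lie farthest left.

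Without 4-OHT the KO clones held less RNA of these genes than the WT clones. Of the 55, 51 were called lower and 0 higher (limma, 0 higher also at an unadjusted p under 0.05), against 3.73% and 2.84% of all tested genes. The median was 2.44-fold lower (log2 -1.28), and all 55 had both KO libraries below both WT libraries, which 28.6% of all tested genes showed. CDCA3 (3.45-fold), NUF2 (3.24-fold) and the kinetochore subunit SPC25 (3.23-fold) were lowest relative to WT. BUB3, CENPA, ASPM and PRC1 were not called, with log2 differences of -0.29, -1.24, -0.21 and -1.07. These calls rest on both untreated KO libraries: 3 were left without KO clone 66, 0 without KO clone 69 (54 at an unadjusted p under 0.05), and 6 in a fit on the 4 untreated libraries alone. The median kept its size in those fits, at -1.27, -1.30 and -1.28, while over all genes 0.103%, 0.0242% and 0.242% were called lower.

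With 4-OHT the order of the genotypes turned. Of the 55 genes, 43 were called higher in KO and 0 lower (limma, 0 lower also at an unadjusted p under 0.05), against 6.77% and 7.63% of all tested genes. The median was 1.85-fold higher (log2 0.89), and all 55 had both KO libraries above both WT libraries, against 30.0% of all tested genes. NUF2 (2.62-fold), KIF20A (2.35-fold) and the mitotic kinase PBK (2.33-fold) differed most. The 12 not called included BUB3, CENPN and ECT2, with log2 differences of 0.19, 0.27 and 0.36. Calls fell to 3 without treated KO clone 69, to 7 without treated WT clone 15 and to 12 without treated KO clone 66, with medians of 0.85, 0.72 and 0.89. In those fits 0.429%, 1.10% and 2.04% of all tested genes were called higher, and 47, 44 and 50 of the 55 had an unadjusted p under 0.05. KIF20A, ASPM and PBK held their calls in all 16 alternatives. The untreated KO libraries enter both the KO response and the untreated genotype difference, and the treated KO libraries both the KO response and the treated difference, so these values are not independent of each other.

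**Figure D3:**
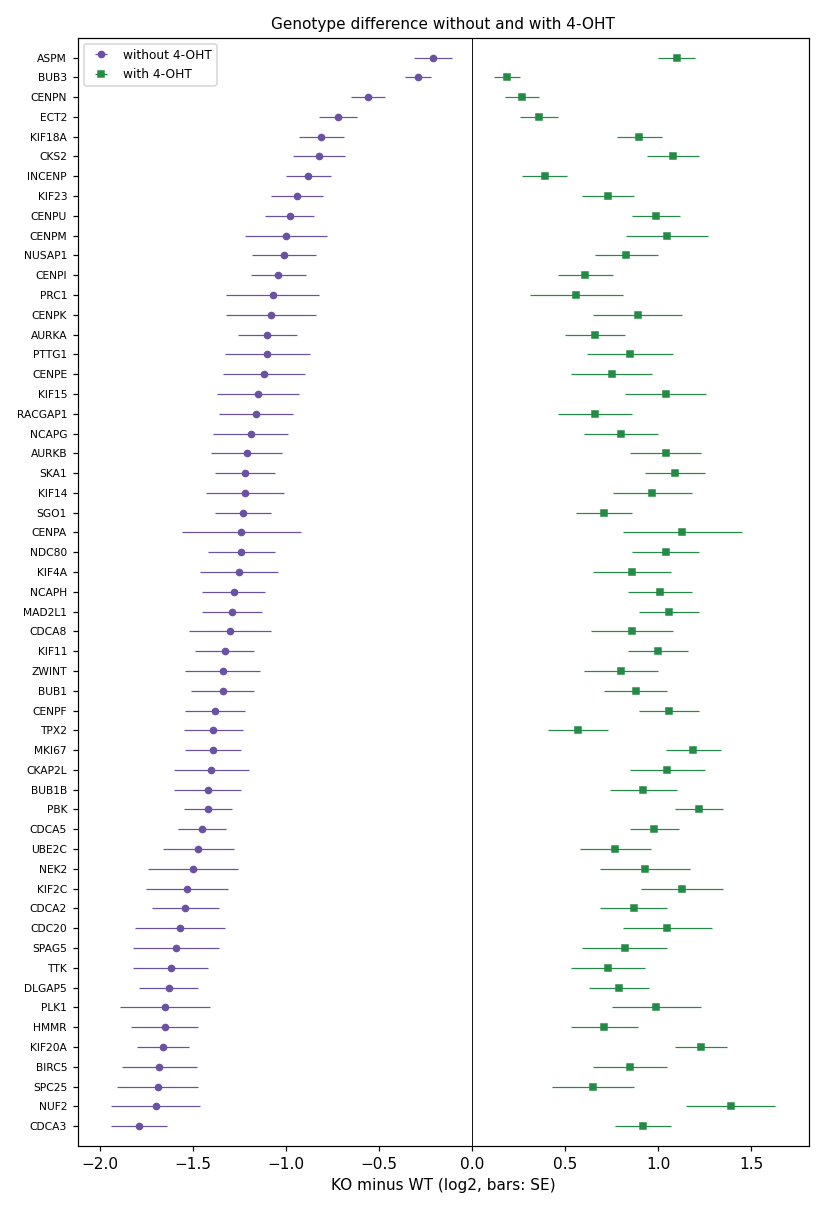
For each gene the point gives KO minus WT on the log2 scale without 4-OHT (circles) and with it (squares), and bars give the standard error. Every circle lies left of 0, from -1.79 to -0.21, and every square right of 0, from 0.19 to 1.39.

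The chromosomal passenger complex places the kinase AURKB at centromeres, where it corrects faulty spindle attachments. BIRC5, which encodes its subunit survivin, measured 24.9 and 38.5 RPKM in untreated WT clones 15 and 54 and 39.3 and 50.3 with 4-OHT. In KO clones 66 and 69 it measured 9.38 and 9.79 RPKM without and 80.4 and 80.5 with 4-OHT. The KO libraries were thus the lowest and the highest of the 8, and the WT groups did not overlap, with no call for their difference (log2 0.52 ± 0.20, adjusted p = 0.0633). BIRC5 rose 8.32-fold in KO (adjusted p = 2.18e-05). AURKB itself measured 10.1 and 14.8 RPKM in untreated and 13.8 and 17.7 in treated WT, 5.16 and 5.29 in untreated KO, and 31.0 and 33.5 in treated KO. Its WT groups overlapped, and its rise in KO was 6.07-fold (adjusted p = 3.12e-05). The borealin gene CDCA8 and the scaffold INCENP rose 5.54-fold and 3.03-fold in KO. None of the 4 genes was called in the WT response, although all 4 were with the clone as a block (adjusted p = 0.00495 for BIRC5 and 0.0185 for AURKB). All 4 were called lower in untreated KO, and 3 were called higher in treated KO, INCENP being the exception (log2 0.39 ± 0.12, adjusted p = 0.0784).

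The spindle checkpoint delays anaphase until every kinetochore is attached. BUB1, a checkpoint kinase at kinetochores, measured 6.77 and 8.93 RPKM in untreated WT, 10.0 and 11.8 in treated WT, 3.42 and 2.66 in untreated KO, and 19.3 and 20.9 in treated KO. MAD2L1, the inhibitor that binds CDC20, measured 3.26 and 4.25 RPKM in untreated WT, 4.72 and 5.87 in treated WT, 1.41 and 1.51 in untreated KO, and 11.4 and 10.8 in treated KO. BUB1B, which encodes the BUBR1 subunit of the inhibitory complex, measured 4.17 and 6.01 RPKM in untreated WT, 5.25 and 6.33 in treated WT, 1.91 and 1.73 in untreated KO, and 10.3 and 11.7 in treated KO. All 3 showed the same order, with the WT groups overlapping only for BUB1B. They rose 6.47-fold, 7.15-fold and 5.79-fold in KO, and the checkpoint kinase TTK rose 6.14-fold. BUB3 (ENSG00000154473.18, GRCh38 chromosome 10, 123154277 to 123170467, plus strand), a partner of BUB1 and BUBR1, measured 13.6 and 14.4 RPKM in untreated WT, 18.4 and 18.8 in treated WT, 11.5 and 11.3 in untreated KO, and 20.9 and 21.3 in treated KO. Its 4 groups had the same order with much smaller steps, and the rise was called in WT (1.33-fold, adjusted p = 0.00243) as in KO (1.84-fold, adjusted p = 4.84e-05).

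The outer kinetochore holds the spindle's microtubules, chiefly through the NDC80 complex. NDC80 measured 6.19 and 8.87 RPKM in untreated WT, 5.99 and 6.59 in treated WT, 3.38 and 2.81 in untreated KO, and 12.5 and 13.6 in treated KO. The WT groups overlapped, with a log2 response of -0.23 ± 0.18 (adjusted p = 0.308), while the rise in KO was 4.14-fold (adjusted p = 6.88e-05). Its partner NUF2 (ENSG00000143228.13, GRCh38 chromosome 1, 163266576 to 163355764, plus strand) measured 5.49 and 4.66 RPKM in untreated WT, 6.32 and 8.15 in treated WT, 1.91 and 1.16 in untreated KO, and 17.2 and 20.9 in treated KO. NUF2 was the gene with the largest response in KO (log2 3.58 ± 0.24, adjusted p = 2.36e-05) and in the difference of the responses (3.09 ± 0.34, adjusted p = 0.00504). SPC25, another subunit of that complex, measured 3.96 and 5.44 RPKM in untreated WT, 4.37 and 6.25 in treated WT, 1.56 and 1.20 in untreated KO, and 8.54 and 8.03 in treated KO. NUF2 and SPC25 had few reads, 16 to 281 and 15 to 97 a library, and the table lists transcripts of only 567 and 510 bases for them. SKA1, which tracks microtubule ends, and ZWINT, which ties the checkpoint's dynein adaptor to the kinetochore, rose 7.76-fold and 6.64-fold in KO. Unlike the others of this role, both were called in WT (1.56-fold and 1.51-fold). Those WT calls ended in 3 (SKA1) and 9 (ZWINT) of 16 alternatives.

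At the centromere, CENPA is the histone H3 variant that marks the site, and CENPI, CENPK, CENPM, CENPN and CENPU belong to the constitutive network built on it. CENPA measured 3.48 and 5.32 RPKM in untreated WT, 3.30 and 6.02 in treated WT, 2.01 and 1.56 in untreated KO, and 8.43 and 11.6 in treated KO. Clones of a group differed more for it than for most members, and neither genotype difference was called (adjusted p = 0.0658 without and 0.0576 with 4-OHT), although the KO rise was 5.34-fold (adjusted p = 0.000562). CENPF, a large protein of the outer kinetochore, measured 7.29 and 10.5 RPKM in untreated WT, 9.97 and 10.7 in treated WT, 3.34 and 3.27 in untreated KO, and 20.9 and 22.6 in treated KO. The WT groups overlapped, and the rise in KO was 6.40-fold (adjusted p = 1.61e-05). CENPN, which reads CENPA nucleosomes, measured 5.51 and 6.03 RPKM in untreated WT, 8.60 and 8.48 in treated WT, 4.08 and 3.71 in untreated KO, and 10.2 and 10.5 in treated KO. It was called higher in WT (1.47-fold, adjusted p = 0.00217) and rose 2.61-fold in KO, and 22.8% of its exon sequence lies opposite other genes, among them CMC2 at 16.3 to 35.2 RPKM. Such reads cannot be told apart unless the counting used strand, which is not stated. CENPI and CENPK were also called in WT (1.68-fold and 1.70-fold). All 8 genes of this role, the kinetochore motor CENPE among them, rose in KO, by a median of 5.21-fold.

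Among genes of the chromosome arms, MKI67, which coats mitotic chromosomes and is the usual proliferation marker (ENSG00000148773.14, GRCh38 chromosome 10, 128096659 to 128126385, minus strand), measured 5.02 and 6.94 RPKM in untreated WT and 5.82 and 6.15 in treated WT. In KO it measured 2.33 and 2.06 RPKM without and 13.9 and 13.7 with 4-OHT. The treated WT libraries lay inside the span of the untreated ones, with a log2 response of 0.02 ± 0.15 (adjusted p = 0.935), while in KO MKI67 rose 6.06-fold (adjusted p = 1.57e-05). NCAPG, a condensin subunit, measured 3.99 and 5.74 RPKM in untreated WT, 5.50 and 7.69 in treated WT, 2.01 and 2.08 in untreated KO, and 11.1 and 11.7 in treated KO. Its KO rise was 5.37-fold. A 33.1% share of its exon sequence lies opposite LCORL, which measured 1.97 to 2.5 RPKM. The condensin subunit NCAPH and SGO1, which protects centromere cohesion, were called in WT (1.46-fold and 1.57-fold) and rose 7.16-fold and 6.01-fold in KO. CDCA5, the cohesion factor sororin, rose 6.74-fold and the phosphatase adaptor CDCA2 6.56-fold in KO. All 6 genes of this role were called higher in treated KO than in treated WT and lower in untreated KO than in untreated WT.

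Kinesins, the motors that slide and shorten microtubules, had a negative median in the WT response (log2 -0.25, 5 of 8 negative). KIF20A (ENSG00000112984.12, GRCh38 chromosome 5, 138178719 to 138187715, plus strand) measured 18.4 and 22.8 RPKM in untreated WT and 9.24 and 10.7 in treated WT. In KO it measured 7.08 and 5.83 RPKM without and 24.5 and 22.5 with 4-OHT. It thus moved in opposite directions, falling in WT (log2 -1.04 ± 0.14, adjusted p = 0.000843) and rising in KO (1.85 ± 0.14, adjusted p = 4.31e-05), and the difference of 2.89 ± 0.20 (adjusted p = 0.00321) held in all 15 alternatives. KIF11, the motor that pushes spindle poles apart, measured 8.75 and 11.4 RPKM in untreated WT, 7.07 and 9.21 in treated WT, 3.86 and 3.94 in untreated KO, and 16.0 and 16.4 in treated KO. Its WT groups overlapped (log2 -0.30 ± 0.16, adjusted p = 0.152), but within clones 15 and 54 the change was -0.30 and -0.31, and it was called lower with the clone as a block (adjusted p = 0.0265). In KO it rose 4.08-fold. KIF15, a motor with a like task, measured 2.70 and 3.44 RPKM in untreated WT, 1.71 and 2.64 in treated WT, 1.38 and 1.26 in untreated KO, and 4.32 and 4.64 in treated KO. Treated WT lay below untreated WT without overlap, with no call (log2 -0.50 ± 0.22, adjusted p = 0.0945) except with the clone as a block (adjusted p = 0.0350). KIF18A, which dampens chromosome movement, and KIF23, of the central spindle, had WT responses of -0.24 and -0.26 on the log2 scale and rose 2.77-fold and 2.65-fold in KO. KIF2C, a microtubule depolymerase, KIF4A and KIF14 had positive WT values of 0.24 to 0.27, none called, and rose 7.61-fold, 5.11-fold and 5.38-fold in KO. All 8 kinesins were called in both genotype differences.

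**Figure D4:**
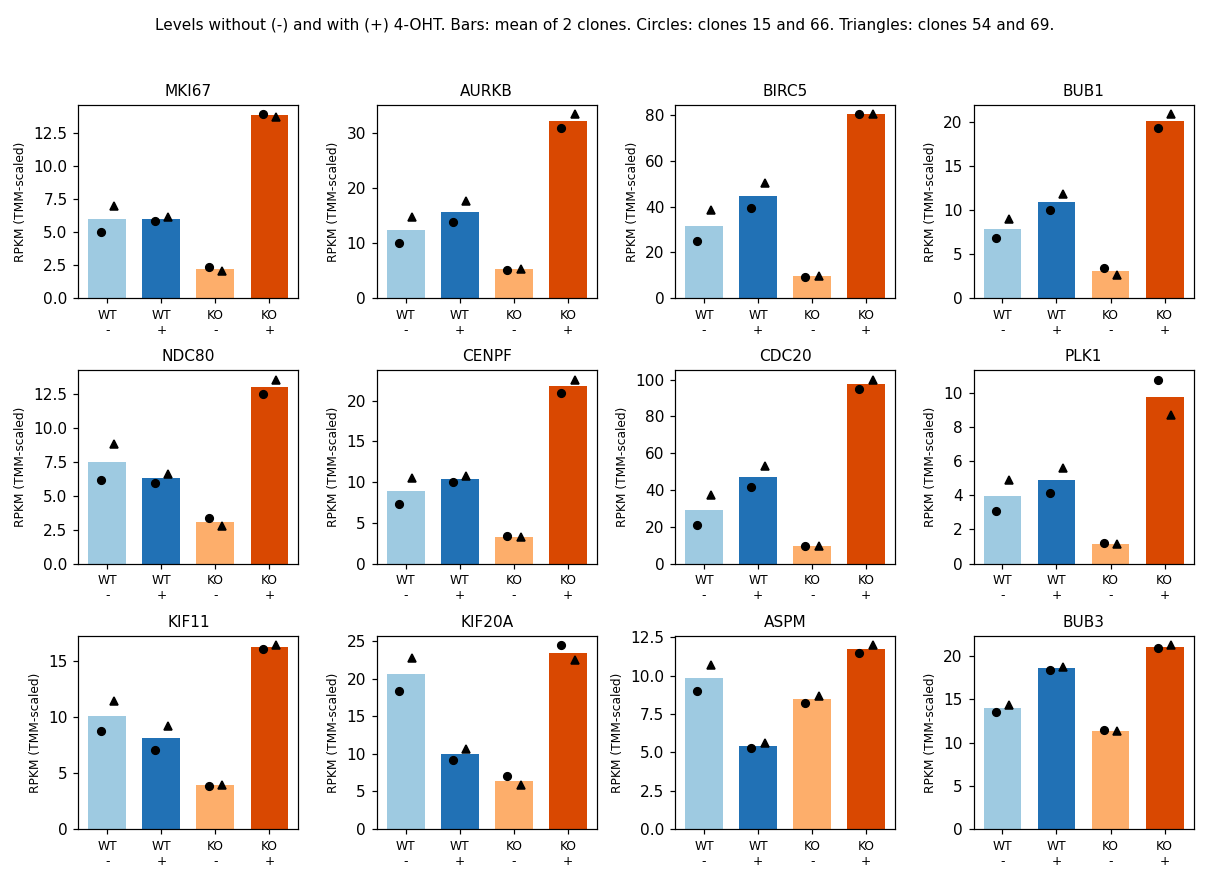
Bars give the mean TMM-scaled RPKM of the 2 clones of a group, and points the clones. Minus and plus mark libraries without and with 4-OHT. In 10 of the 12 genes untreated KO is lowest and treated KO highest in both clones. KIF20A and ASPM drop in treated WT, and the steps between groups are small in BUB3.

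Of the 10 spindle assembly genes, ASPM had the smallest KO response of all members. The gene (ENSG00000066279.18, GRCh38 chromosome 1, 197084128 to 197146694, minus strand) measured 9.0 and 10.7 RPKM in untreated WT, 5.29 and 5.59 in treated WT, 8.25 and 8.69 in untreated KO, and 11.5 and 12 in treated KO. The untreated genotypes were not called different (log2 -0.21 ± 0.10, adjusted p = 0.253). ASPM fell in WT (-0.84 ± 0.10, adjusted p = 0.000530) and rose in KO (0.47 ± 0.10, adjusted p = 0.00667). AURKA, the spindle pole kinase, measured 12.7 and 18.3 RPKM in untreated WT, 26.9 and 29.9 in treated WT, 7.39 and 6.72 in untreated KO, and 46.3 and 43.3 in treated KO. No 2 of its groups overlapped, and it rose in WT (1.86-fold, adjusted p = 0.00314) and more in KO (6.27-fold). TPX2, which activates AURKA on microtubules, measured 14.4 and 20.5 RPKM in untreated WT, 19.6 and 22.5 in treated WT, 6.77 and 6.21 in untreated KO, and 31.4 and 30.8 in treated KO. It had no call in WT (log2 0.29 ± 0.16, adjusted p = 0.176) or between treated genotypes (0.57 ± 0.16, adjusted p = 0.0550, or 0.0487 with the clone as a block). PLK1, a kinase of mitotic entry and spindle poles, measured 3.07 and 4.89 RPKM in untreated WT, 4.17 and 5.60 in treated WT, 1.22 and 1.12 in untreated KO, and 10.8 and 8.73 in treated KO. Its KO rise was 7.72-fold (adjusted p = 5.44e-05), with overlapping WT groups. CKAP2L measured 3.16 and 3.88 RPKM in untreated WT, 5.56 and 7.38 in treated WT, 1.06 and 1.51 in untreated KO, and 12.7 and 14.0 in treated KO, in 4 groups that did not overlap. The centrosome kinase NEK2, the microtubule binders DLGAP5, HMMR, SPAG5 and NUSAP1 had no call in WT (log2 -0.16 to 0.47; NEK2 was called with the clone as a block) and rose 3.89-fold (NUSAP1) to 7.45-fold (NEK2) in KO. NUSAP1 shares 62.2% of its exon sequence with AC087721.2, annotated on the same strand, which measured at most 0.0412 RPKM. How the counting treated reads in both is not stated, so the level of NUSAP1 is uncertain.

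Genes of anaphase and protein destruction had a median WT response of 1.67-fold, with 4 of 5 called higher. CDC20 measured 21.2 and 37.0 RPKM in untreated WT, 41.6 and 52.9 in treated WT, 9.50 and 9.29 in untreated KO, and 94.8 and 100 in treated KO. PTTG1 measured 29.6 and 50.4 RPKM in untreated WT, 69.8 and 82.7 in treated WT, 17.1 and 18.9 in untreated KO, and 127 and 147 in treated KO. UBE2C, the ubiquitin-conjugating enzyme of the anaphase-promoting complex, measured 24.6 and 33.6 RPKM in untreated WT, 36.5 and 52.1 in treated WT, 10.1 and 10.6 in untreated KO, and 75.9 and 73.2 in treated KO. No 2 groups of these 3 genes overlapped. CDC20 rose 1.67-fold in WT and 10.3-fold in KO, PTTG1 1.96-fold and 7.56-fold, and UBE2C 1.51-fold and 7.15-fold. The WT calls of CDC20 and UBE2C ended in 8 of 16 alternatives (highest adjusted p 0.171 and 0.176): with no filter, with only the 4 WT libraries, without untreated clone 15 or treated clone 54, and without any 1 of the 4 KO libraries. That of PTTG1 ended only without treated clone 54 (adjusted p = 0.0598). CKS2, an adaptor of cyclin-dependent kinases, kept its WT call in every alternative (1.68-fold, adjusted p = 0.00316) and rose 6.30-fold in KO. CDCA3 measured 4.28 and 5.01 RPKM in untreated WT, 3.75 and 4.42 in treated WT, 1.36 and 1.19 in untreated KO, and 8.29 and 7.31 in treated KO. Its WT response was not called (log2 -0.18 ± 0.15, adjusted p = 0.341), and the difference of the responses was 2.70 ± 0.21 (adjusted p = 0.00379). The copies PTTG2 and PTTG3P of securin measured at most 0.117 and 0.353 RPKM, and none of 22 annotated copies of members passed 0.522 RPKM.

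Of the cytokinesis genes, ECT2, the exchange factor that sets the cleavage furrow, measured 11.9 and 13.4 RPKM in untreated WT, 16.0 and 18 in treated WT, 7.42 and 7.87 in untreated KO, and 20.7 and 23.1 in treated KO. Its groups did not overlap, and it rose in WT (1.34-fold, adjusted p = 0.0113) and in KO (2.84-fold, adjusted p = 2.48e-05), without a call between treated genotypes (adjusted p = 0.0545, or 0.0486 with the clone as a block). RACGAP1, a subunit of the centralspindlin complex, rose 3.92-fold in KO with no call in WT (log2 0.15 ± 0.20). PBK measured 12 and 14.3 RPKM in untreated WT, 12.9 and 16.4 in treated WT, 4.96 and 4.73 in untreated KO, and 34.7 and 33.1 in treated KO. WT groups overlapped for PBK, which rose 6.88-fold in KO (adjusted p = 8.15e-06) and had a difference of responses of 2.64 ± 0.19 (adjusted p = 0.00321). PRC1, the bundler of antiparallel microtubules, measured 0.185 and 0.269 RPKM in untreated WT, 0.244 and 0.351 in treated WT, 0.0409 and 0.0701 in untreated KO, and 0.494 and 0.465 in treated KO. These values rest on 4 to 45 reads a library. PRC1 shares 57.6% of its exon sequence with AC068831.7, annotated on the same strand, and how the counting treated reads in both is not stated, so its level is uncertain.

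The clones of a genotype were compared next. In WT clones 15 and 54 the median response was 0.42 and 0.22 on the log2 scale, with 46 and 45 of 55 genes positive. In KO clones 66 and 69 it was 2.46 and 2.53 (5.50-fold and 5.78-fold), with all 55 positive in each. The lowest response in a KO clone was 0.47 (ASPM) and the highest in a WT clone 1.23, so the genotypes' ranges overlapped only at the low end of KO. WT clone 54 lay above clone 15 in 53 of 55 genes without 4-OHT (median log2 0.44, exceptions CENPU and NUF2) and in 54 with it (0.31, exception CENPN). Over all tested genes the shares were 49.8% and 48.6%. The KO clones lay closer, with clone 69 above clone 66 in 23 of 55 genes without 4-OHT (median -0.03) and 39 with it (0.06).

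**Figure D5:**
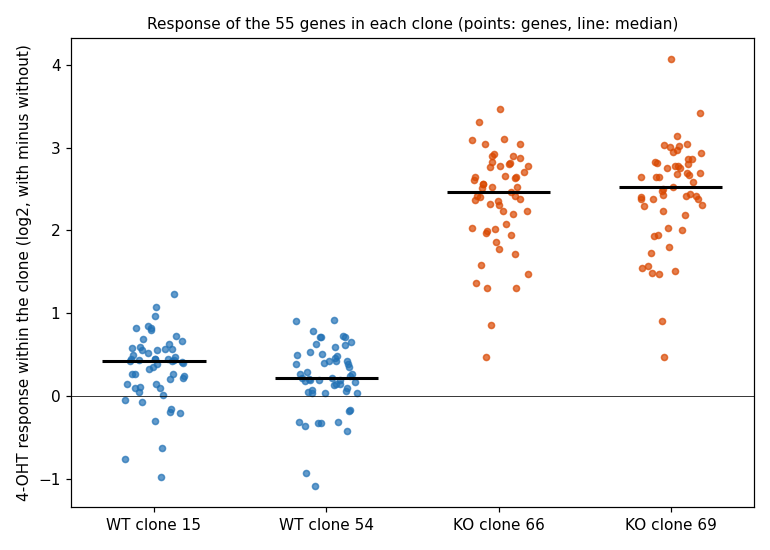
Points give the 4-OHT response of each of the 55 genes within a clone, as log2 of treated over untreated, and lines the median. WT medians are 0.42 and 0.22 and KO medians 2.46 and 2.53, and no point of a KO clone lies below 0.

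Further genes of mitosis, from lists drawn up by function, are given beside these members. Like the members, these lists were chosen with earlier results of these data known, so they are not an independent comparison. Of 28 other kinetochore and centromere genes, 23 rose and 1 fell in KO with 4-OHT (median 2.96-fold), 9 rose and 2 fell in WT, and 16 differed in response, all with the larger value in KO. Of all tested genes 27.9% rose and 27.8% fell in KO, and 24.7% rose and 24.2% fell in WT. For the difference of the responses 4.36% were called higher and 3.22% lower. The same shares apply to the lists that follow. HJURP, the chaperone of CENPA, measured 7.48 ± 0.590 RPKM (SD, n = 2 clones) in untreated WT, 7.82 ± 1.16 in treated WT, 2.59 ± 0.490 in untreated KO and 13.8 ± 1.23 in treated KO. CENPT, a gene of the constitutive network at the centromere, measured 8.07 ± 0.374 and 16.5 ± 0.281 RPKM in untreated and treated WT and 6.27 ± 0.292 and 13 ± 0.432 in untreated and treated KO. It rose in both genotypes, by 1.03 and 1.04 on the log2 scale. CENPC, a scaffold of the inner kinetochore, fell in WT (log2 -1.09) and in KO (-0.64). Of 44 other spindle, centrosome and cytokinesis genes, 33 rose and 2 fell in KO (median 2.48-fold), and 25 differed in response, all with the larger value in KO, among them PIMREG (log2 2.5) and DEPDC1 (1.98). TUBG1, the gamma-tubulin gene, rose in WT (log2 1.08) and in KO (1.66).

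The list of checkpoint and anaphase genes and that of condensin and cohesin genes were more mixed. Of 23 other checkpoint and anaphase genes 14 rose and 3 fell in KO (median 1.47-fold), and 7 differed in response, all with the larger value in KO. TRIP13, which resets the checkpoint, rose in KO by 3.17 on the log2 scale and in WT by 0.88. CDC23, a subunit of the anaphase-promoting complex used through the cell cycle, fell in WT (-0.49) and was not called in KO (-0.11). Of 18 other condensin and cohesin genes 8 rose and 3 fell in KO (median 1.10-fold), and 8 differed in response, all with the larger value in KO. The condensin genes NCAPD2 and SMC4 differed by 1.77 and 1.63 on the log2 scale. RAD21, of the cohesin ring, fell in WT (log2 -0.75, adjusted p = 0.000215) and was not called in KO (-0.10, adjusted p = 0.314).

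Regulators of mitotic promoters were read last. FOXM1 measured 9.17 ± 1.32 RPKM (SD, n = 2 clones) in untreated WT, 9.58 ± 1.77 in treated WT, 5.77 ± 0.744 in untreated KO and 18.4 ± 0.412 in treated KO. MYBL2 measured 5.63 ± 1.56 RPKM in untreated WT, 3.18 ± 1.14 in treated WT, 1.77 ± 0.0466 in untreated KO and 5.99 ± 0.544 in treated KO. Their responses differed between genotypes by 1.61 ± 0.22 (limma adjusted p = 0.00891) and 2.52 ± 0.37 (adjusted p = 0.0105) on the log2 scale. MYBL2, like KIF20A and ASPM, fell in WT (log2 -0.82 ± 0.26, limma adjusted p = 0.0351) and rose in KO (1.70 ± 0.26, adjusted p = 0.00119). LIN9, of the complex shared by both states, and RBL1, the RB-like p107 gene, also differed (1.55 and 1.25). The other 11 regulators did not differ in response at the threshold. RBL2, the RB-like p130 gene, fell in WT (log2 -1.37) and in KO (-0.85), as did the NF-Y subunit NFYB (-0.85 and -0.73) and RBBP4 (-0.49 and -0.63). LIN37 and E2F4 rose in both genotypes. NFYA and TFDP1 rose in KO and were not called in WT (log2 0.23 and 0.17), LIN54 fell in WT and was not called in KO (-0.04), and LIN52 and NFYC were called in neither. CDKN1A, the gene of the kinase inhibitor p21, measured 147 ± 21.6 RPKM in untreated and 698 ± 25 in treated WT, and 78.1 ± 6.45 in untreated and 289 ± 55.9 in treated KO. It rose in both genotypes (log2 2.25 and 1.88) and was called lower in KO both without (-0.91, adjusted p = 0.0204) and with 4-OHT (-1.28, adjusted p = 0.00529), while its responses did not differ at the threshold (-0.38 ± 0.21, adjusted p = 0.318).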

How the data were processed

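RNA from 8 libraries was analysed, with each library's group taken from its labels. Per the labels' protocols, total RNA was column-purified with DNase digestion and sequenced as stranded libraries. The submitters' processing notes name STAR, featureCounts, edgeR and the build GRCh38. Roles, versions and the strand setting: not given in the sources used here.

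A column of RPKM values per library stands in the table the authors deposited (58870 rows). Every column was matched to a sample, and 45 pseudoautosomal Y copies were left out. Multiplying a value by the listed transcript's length (GENCODE release 29) and the library total gave whole reads within 0.1 read for 100.0% of values. For 827 genes the length came from another version of the transcript, for 5672 from the steps between values, and for 177 it was not resolved. The recovered reads made up 99.96% to 99.99% of library totals of 22.1 to 24.9 M.

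RPKM was divided by TMM factors of the recovered reads (0.954 to 1.029). Genes were tested when at least 2 libraries passed a CPM of 0.425 (10 reads in a library of median size) and 15 reads were found in all. Group means (4 of them) were fitted to log2(RPKM + 0.1) with limma 3.58.1 (R 4.3.3), using an intensity trend and robust moderation (4 residual degrees of freedom). The 5 contrasts were two-sided and Benjamini-Hochberg adjusted over 16542 genes, with 0.05 as threshold. The procedure was tested on simulated data with the same dispersion for every gene and no difference between clones. That test therefore does not cover the spread between clones seen here. Because the unit is RPKM, no count test was the main test. The alternatives were pseudocounts of 1 and 0.01, no filter, library size only, median-of-ratios factors, limma-voom on the recovered reads, a fit on the 4 libraries compared, the clone as a replicate block, and leaving out each library. The clone pairs libraries by design. Deviations from the group means correlated at 0.309 between the libraries of a WT clone and 0.005 of a KO clone. The block was a fixed term for the responses and their difference and a random term (correlation 0.152) for KO minus WT.

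The 55 genes and the other lists were chosen with earlier results of these data known. Values in every library are given for a fixed set of 22 genes and the 3 largest and 3 smallest changes of each contrast. Of other pathway genes, up to 3 of a list with the smallest p in a contrast are named, and of regulators all 15 listed, with group means or log2 values. A further regulator is not reported here. The promoters printed are the gene with the smallest p in the difference of the responses in each of 4 roles, among those with the motif. Positions and exon overlaps come from GENCODE release 29. Limits of counts cover counting error only.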

Additional observations from a re-analysis of the deposited data

Results flagged for a closer look

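The response to 4-OHT differed between the genotypes by a test of the difference itself (limma interaction term) for 55 of the 55 genes, each larger in KO. The 10 with the smallest p were, on the log2 scale, the kinesin KIF20A (2.89), the kinase PBK (2.64), CDCA3 (2.70), the cohesion factor CDCA5 (2.42), the marker MKI67 (2.58), the kinetochore protein CENPF (2.44), the microtubule binder DLGAP5 (2.42), the centromere protein CENPU (1.97), the checkpoint inhibitor MAD2L1 (2.35) and the kinesin KIF11 (2.33). In each of the 10 the response was larger in both KO clones than in both WT clones. This is not separate support, because the 10 were picked by the p of this difference.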

How the results depend on the processing

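The members' median kept its direction in every alternative run, 16 for 4 comparisons and 15 for the difference of the responses, to which a fit on 4 libraries does not apply. For genes called higher in the WT response, the count of 16 became 10 with no filter, 10 with only the 4 libraries compared, and 5 to 32 with a library left out. The 2 called lower became 2 to 7 with a library left out, and the median of 0.31 became 0.06 to 0.54. With the clone as a replicate block the WT response held 25 higher and 4 lower, KO minus WT with 4-OHT 47, and the block changed no other count by over 1.5 times. For KO minus WT without 4-OHT the 51 lower calls became 24 with no filter, 6 with only the 4 libraries compared and 0 to 54 with a library left out (median -1.53 to -1.10). With 4-OHT the 43 higher calls became 16 with no filter and 3 to 51 with a library left out. A pseudocount of 1 RPKM lowered the median of the KO response to 2.09 and of the difference to 1.88, as a larger pseudocount does for low genes. No filter raised the genes tested to 36398. Other causes were not tested.

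Signs changed in the WT response alone, for genes not called there. Leaving out 1 library moved the log2 value over these ranges: BUB1B -0.06 to 0.46, SPC25 -0.08 to 0.42, CENPA -0.38 to 0.47, CENPF -0.02 to 0.50, CENPM -0.13 to 0.40, MKI67 -0.21 to 0.25, KIF2C -0.10 to 0.64, KIF4A -0.08 to 0.57, KIF14 -0.07 to 0.55, DLGAP5 -0.13 to 0.30, NUSAP1 -0.04 to 0.26, PLK1 -0.02 to 0.64, SPAG5 -0.03 to 0.68, RACGAP1 -0.16 to 0.46 and PBK -0.03 to 0.32. Their negative values came without untreated clone 15 or treated clone 54. NDC80 (-0.49 to 0.02) and HMMR (-0.44 to 0.12) turned positive without untreated clone 54. With library size only the value was -0.02 for CENPA and -0.05 for MKI67. Where a group is left with 1 library, that library is assumed to vary like the other groups. Depth limits PRC1 (4 to 45 reads) and SPC25 (15 to 97 reads) most.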
